A study of Mus musculus with 9 samples.

Results

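LY500307 given with PD-1 treatment was compared with no treatment by RNA sequencing of samples that carry the label 4T1, the name of a mammary carcinoma line of the mouse that is widely used as a transplantable tumour model. The comparison used 6 of the 9 libraries of the study, 3 of the control group and 3 of the LY500307+PD-1 group, and the other 3 (PD-1 treatment without LY500307) are given beside them where they bear on a result. A gene was compared if 3 or more of the 6 libraries had 1 FPKM or above, which held for 13560 of the 52550 genes in the deposited table. FPKM is a fragment count divided by transcript length and library size, and so compares levels per length. None of the genes compared had an adjusted p under 0.05 by limma with Benjamini-Hochberg adjustment (0% of 13560), so the values that follow describe these libraries and carry no call.

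LY500307 is a synthetic agonist of estrogen receptor beta, the product of Esr2. PD-1, encoded by Pdcd1, is an inhibitory receptor on T cells, and the labels name the treatment only as PD-1, with no antibody, dose, route or duration. All 9 libraries carry the same line and source, and nothing in the labels tells cultured cells from tumours grown in mice. Nor do they say that replicates came from separate cultures or animals, so a p-value here stands for the spread from library to library, part or all of which may be technical. In tumours, interferons raise a shared program of antiviral and antigen presentation genes, the vasculature is lined by endothelial cells kept by VEGF signalling, and myeloid cells that make arginase restrain T cells. Ligand-bound estrogen receptors act on genes through estrogen response elements or through other factors on the DNA.

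A depth estimate from the steps between low values gave 8404000 to 8646000 fragments for the 6 libraries, and 20701 to 21480 genes were above 0. Only 25.3% to 28.2% of low values lay on whole steps, so the depth estimate is uncertain. Pearson's r of log2(FPKM + 1) across genes, over pairs of these 6 libraries, had a median of 0.958 for pairs of the same group and 0.963 for pairs of different groups. Libraries of one group were thus no more alike than libraries of different groups. Endothelial, macrophage, T cell and mast cell markers were present, so a level here is a level in the whole sample, and fewer cells of a type cannot be told apart from less RNA per cell. LY500307+PD-1 library 2 stood apart in keratin, muscle and cell cycle genes, control library 1 was low in mast cell markers, and control library 3 was high in macrophage and mast cell markers. Values without a library are given beside the main lists it moves.

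Among all genes tested, log2 fold changes of LY500307+PD-1 over control had a median of -0.00 and quartiles of -0.12 and 0.11, with a median standard error of 0.17. An unadjusted p under 0.05 was reached by 438 genes (3.23%), where 678 would be reached by chance, and they divided into 201 higher (1.48%) and 237 lower (1.75%). The groups did not overlap in 1070 genes (7.89%). In 485 of them (3.58%) each LY500307+PD-1 library was above each control library, and in 585 (4.31%) each was below. For 3 against 3 interchangeable libraries the chance of no overlap in either direction is 0.1, so the share of 7.89% was not above chance. The smallest adjusted p in the limma test with Benjamini-Hochberg adjustment was 0.211, for Gm5641, a gene model. On simulated data with 100 changed genes per size, this fit called 57% of genes changed by 1 on the log2 scale. It called 84% of those changed by 2, and 9 unchanged genes. The simulated noise was drawn for each gene apart, with no spread shared by the genes of a library. These shares may therefore not hold for the real libraries.

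Of the genes that were higher in LY500307+PD-1, the one with the smallest p among named genes was Dlst (chromosome 12, positions 85110833 to 85134845, GRCm38), which encodes a subunit of the 2-oxoglutarate dehydrogenase complex of the citric acid cycle. In FPKM, Dlst stood at 4.32, 4.86 and 3.87 in control and at 9.201, 9.68 and 9.92 in LY500307+PD-1. The groups were apart by a log2 difference of 0.99 (SE 0.12), with an adjusted p of 0.571 in limma with Benjamini-Hochberg adjustment. In PD-1 libraries Dlst stood at 3.26, 3.73 and 9.12, so 2 of these were below the control range and 1 was near the LY500307+PD-1 level. Adamts14 (chromosome 10, positions 61197112 to 61273438), a protease that trims the amino end of procollagen, stood at 3.69, 4.52 and 3.63 in control and 7.67, 8.64 and 8.04 in LY500307+PD-1, a log2 difference of 0.89 (SE 0.13). Its PD-1 libraries, at 6.55, 10.1 and 5.27, were also all above control.

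Fpgs, which adds glutamate to folates and so keeps them in the cell, stood at 3.89, 4.26 and 3.49 FPKM in control and at 6.33, 6.99 and 6.23 in LY500307+PD-1. Its log2 difference was 0.62 (SE 0.12), and PD-1 libraries stood at 6.02, 5.87 and 7.21, close to LY500307+PD-1. Apol10b, a member of the apolipoprotein L family, stood at 5.35, 5.598 and 6.54 in control and 8.98, 9.57 and 10.5 in LY500307+PD-1, with a log2 difference of 0.65 (SE 0.12). All LY500307+PD-1 libraries were above the control libraries for both genes. Slc45a4, a member of the solute carrier family, differed by 0.68 (SE 0.16), with 1.67 to 2.15 FPKM in control and 3.05 to 4.25 in LY500307+PD-1. Eif1ad, which resembles the translation initiation factor eIF1A, differed by 0.48 (SE 0.11), with 9.34 to 9.89 FPKM in control and 12.3 to 14.7 in LY500307+PD-1. Of the 2792 exonic bases of Eif1ad, 428 are shared with the more abundant Banf1 on the opposite strand. Syne3, a nesprin of the outer nuclear membrane, differed by 0.60 (SE 0.14), with 1.22 to 1.26 FPKM in control and 2.19 to 2.77 in LY500307+PD-1.

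Other genes of this group varied more between replicates. Myadm, a membrane protein of myeloid differentiation, stood at 10.9, 11.2 and 11.7 FPKM in control and 32.6, 17.8 and 32.3 in LY500307+PD-1, while PD-1 libraries spanned 8.53 to 35.1. The groups compared were apart, but PD-1 libraries reached from below control to above LY500307+PD-1. Sept8, a septin of the cytoskeleton, stood at 6.07 to 7.57 in control, 10.4 to 18.7 in LY500307+PD-1 and 19.3 to 22.1 in PD-1. Rere, a nuclear receptor coregulator, differed by 1.00 (SE 0.22), with 5.15 to 7.43 FPKM in control and 10.3 to 17.98 in LY500307+PD-1. Crk, an adaptor of tyrosine kinase signalling, stood at 7.28, 8.48 and 31.9 in control and 34.6, 32.9 and 34.3 in LY500307+PD-1. Control library 3 was at nearly the LY500307+PD-1 level, so the log2 difference of 1.35 (SE 0.50) rested on control libraries 1 and 2.

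Among the genes chosen for groups that did not overlap, most of the largest differences upward came from genes that were low in control. Krt5, given below with the epithelial markers, differed by more but with overlap. Stfa3 (chromosome 16, positions 36450537 to 36455392), a stefin A inhibitor of cysteine cathepsins made by myeloid cells, stood at 1.45, 2.31 and 1.49 FPKM in control, 1.02, 1.54 and 2.698 in PD-1 and 26.6, 14.5 and 5.18 in LY500307+PD-1. Each LY500307+PD-1 library was above every other library, and the log2 difference was 2.34 (SE 0.51) from control and 2.37 (SE 0.48) from PD-1. Cxcl13, a chemokine that draws B cells and follicular T cells, stood at 0, 0.104 and 3.27 in control and 4.21, 5.08 and 10.004 in LY500307+PD-1, a log2 difference of 2.07 (SE 0.59). Scd1, the stearoyl-CoA desaturase that makes monounsaturated fatty acids, stood at 1.19, 2.2001 and 3.28 in control and 4.16, 19.03 and 3.79 in LY500307+PD-1, with library 2 well above the others. The muscle genes Acta1 (skeletal actin) and Des (desmin) stood at 14.6, 65.6 and 13.2 and at 7.68, 16.2 and 4.68 in LY500307+PD-1, again highest in library 2, against 2.44 to 9.29 and 1.92 to 4.36 in control.

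Of the genes that were lower, Fkbp1a (chromosome 2, positions 151542483 to 151561692), which encodes FKBP12, the binding protein of tacrolimus and rapamycin, had the smallest p. Fkbp1a stood at 50.2, 50.5 and 47.7 FPKM in control and 30.9, 28.1 and 28.2 in LY500307+PD-1, a log2 difference of -0.75 (SE 0.10), with an adjusted p of 0.571 in limma with Benjamini-Hochberg adjustment. PD-1 libraries divided between both levels, at 27.9, 31.6 and 49.2. F10 (chromosome 8, positions 13037308 to 13056676), coagulation factor X, stood at 4.79, 3.76 and 4.24 in control and 1.46, 1.86 and 1.78 in LY500307+PD-1. PD-1 libraries lay between, at 2.92, 3.102 and 2.89, with no overlap among the 3 groups. The log2 difference of F10 was -0.96 (SE 0.14) from control, with an adjusted p of 0.713 in limma with Benjamini-Hochberg adjustment, and -0.56 (SE 0.13) from PD-1. Ptgs1, the cyclooxygenase COX-1, stood at 12.3, 13.4 and 17.1 in control and at 8.74, 8.03 and 8.63 in LY500307+PD-1, a log2 difference of -0.68 (SE 0.14).

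Gper1, the membrane-bound G protein-coupled estrogen receptor, was also among the 12 genes with the smallest p in this direction. It stood at 2.203, 1.64 and 1.55 FPKM in control, 0.594, 0.692 and 0.371 in LY500307+PD-1 and 0.4797, 0.675 and 0.185 in PD-1. Both treated groups were below each control library, and the log2 difference of LY500307+PD-1 from control was -0.85 (SE 0.18). Tor1b, an ATPase of the nuclear envelope and endoplasmic reticulum, stood at 6.44, 5.72 and 5.86 in control and 2.57, 1.45 and 2.55 in LY500307+PD-1, a log2 difference of -1.16 (SE 0.18). Apc, the scaffold of the complex that marks beta-catenin for destruction, stood at 2.91, 2.92 and 2.195 in control, 1.68, 3.15 and 3.09 in PD-1 and 0.683, 0.573 and 0.998 in LY500307+PD-1. LY500307+PD-1 libraries were below every other library for Apc, by a log2 difference of -1.07 (SE 0.17) from control and -1.03 (SE 0.20) from PD-1. Gper1 and Apc were below 1 FPKM in each LY500307+PD-1 library and passed the filter through control alone. The filter could thus admit them only as lower genes. Akt2, a kinase of insulin signalling, differed by -0.94 (SE 0.18) from control, and PD-1 libraries spanned 5.56 to 15.9, reaching from below LY500307+PD-1 to within the control range.

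Phospho1, a phosphatase of bone mineralization, stood at 14.5, 17.8 and 19.96 FPKM in control and 8.29, 4.99 and 6.77 in LY500307+PD-1, with PD-1 at 7.92, 6.56 and 7.15. Its log2 difference of -1.27 (SE 0.20) is uncertain as a value of this gene, because of its 2029 exonic bases 1708 are shared with Abi3 on the opposite strand and 1818 with Zfp652 on the same strand. Ntmt1, an amino-terminal methyltransferase, differed by -0.75 (SE 0.16), Ttll7, a tubulin polyglutamylase, by -0.90 (SE 0.20), and Trp53i11, a p53-induced gene, by -0.99 (SE 0.23), with the groups apart in each. Pdgfrl, a protein that resembles a PDGF receptor, stood at 12.2, 9.67 and 10.7 in control and 3.04, 2.41 and 7.11 in LY500307+PD-1. Ace, the angiotensin-converting enzyme, stood at 7.52, 19.1 and 7.61 in control and 6.95, 2.51 and 4.45 in LY500307+PD-1. LY500307+PD-1 library 3 was the highest of its group for Pdgfrl and library 1 for Ace, each still below the lowest control library.

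**Figure D1:**
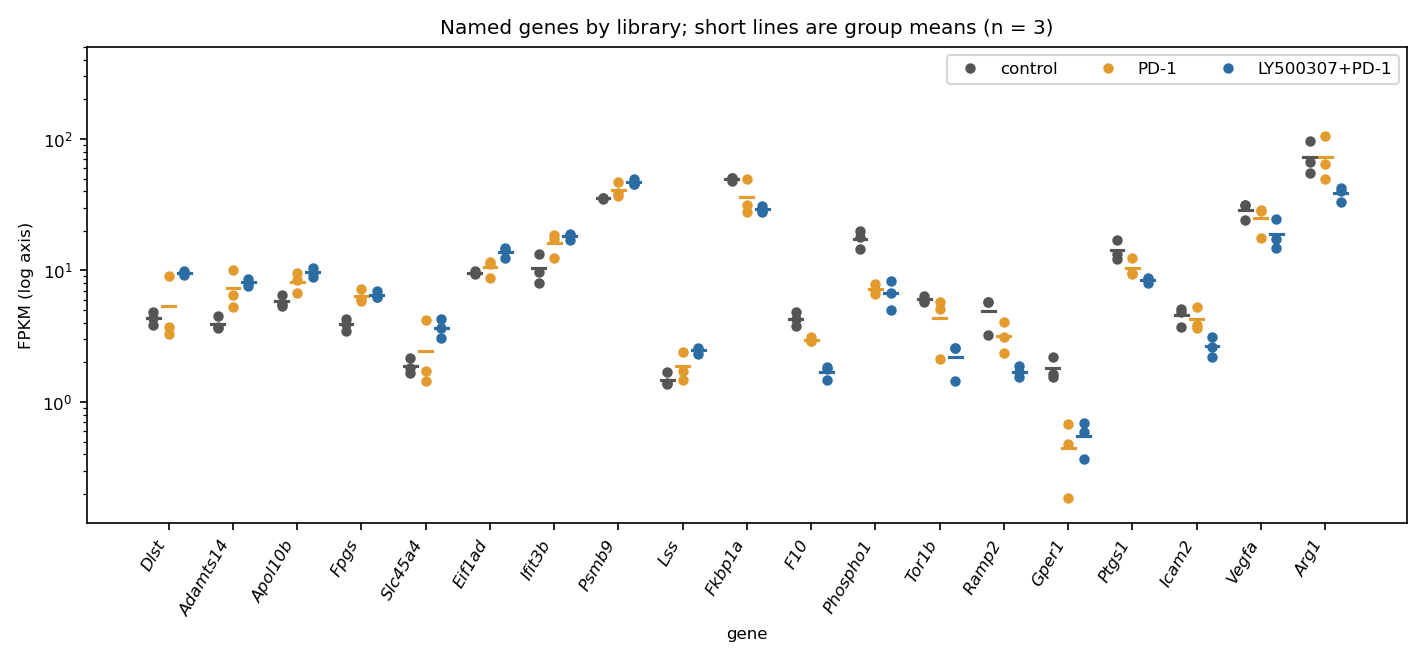
FPKM of 19 named genes (x axis) in each library on a log axis (y axis), with 1 point per library and a short line at the mean of each group of 3. The LY500307+PD-1 points of Dlst, Psmb9 and Eif1ad lie above all control points and those of F10, Ramp2, Gper1 and Arg1 below, while PD-1 points often span both.

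Markers of endothelial cells were lower in LY500307+PD-1 across the list. All 23 markers that passed the expression filter, of 28 listed, had a log2 difference below 0, where 50.5% of all genes tested did, and their median was -0.42 against -0.00 for all genes. In 9 of them (Pecam1, Cdh5, Cldn5, Robo4, Flt1, Esam, Ramp2, Esm1 and Icam2) the groups did not overlap, where 4.31% of all genes were lower without overlap, and 9 reached an unadjusted p under 0.05 in limma, where 1.75% did. None passed the adjusted test. These genes are expressed in the same cells and measured in the same libraries, so their directions are not separate observations. The filter left out Calcrl, Flt4, Sox17, Tek and Vwf, and with no filter all 28 were lower.

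Ramp2, the partner protein of the adrenomedullin receptor, stood at 3.26, 5.78 and 5.75 FPKM in control and 1.54, 1.88 and 1.68 in LY500307+PD-1, a log2 difference of -1.10 (SE 0.21). The groups were apart, with PD-1 between them at 4.04, 2.35 and 3.09, but 1103 of the 3301 exonic bases of Ramp2 are shared with Vps25 on the same strand. Cldn5, the claudin of endothelial tight junctions, stood at 31.4, 14.8 and 18.3 in control and 9.796, 11.6 and 6.53 in LY500307+PD-1, a log2 difference of -1.09 (SE 0.31). Icam2, an endothelial ligand of leukocyte integrins, stood at 5.12, 3.703 and 4.83 in control and 2.204, 3.12 and 2.602 in LY500307+PD-1, a log2 difference of -0.61 (SE 0.17). Both genes were lower in each LY500307+PD-1 library than in any control library. Esm1, a proteoglycan of sprouting tip cells, stood at 6.43, 8.84 and 5.75 in control and 2.31, 0.918 and 5.64 in LY500307+PD-1, where library 3 was just below the lowest control.

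Among the broader vascular markers, Pecam1, the junctional adhesion molecule CD31, stood at 11.5, 9.39 and 13.6 FPKM in control and 7.43, 8.53 and 7.54 in LY500307+PD-1. Cdh5, the cadherin of endothelial junctions, stood at 23.8, 19.4 and 17.7 in control and 16.8, 15.7 and 12.4 in LY500307+PD-1. Robo4, a guidance receptor of endothelium, differed by -0.59 (SE 0.17), Esam, a junctional adhesion molecule, by -0.60 (SE 0.20), and Flt1, a VEGF receptor, by -0.22 (SE 0.13). The groups were apart in all of them, with LY500307+PD-1 lower, because they were named from the markers without overlap. Summed over the list, endothelial markers came to 257, 201 and 239.9 FPKM in control, 161, 192 and 157 in LY500307+PD-1 and 228, 183 and 255 in PD-1. Control library 2 was the lowest control and LY500307+PD-1 library 2 the highest of its group, and the list median was -0.61 without the former and -0.54 without the latter.

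**Figure D2:**
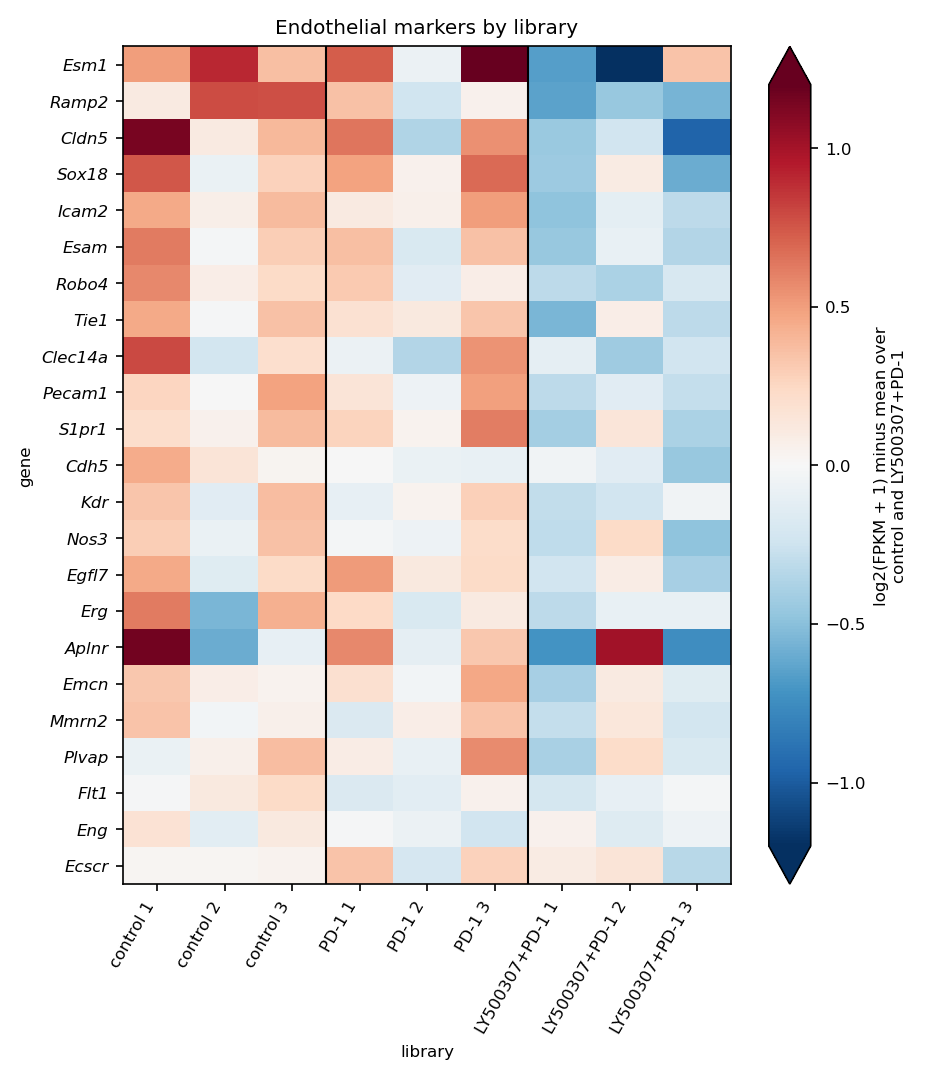
Each endothelial marker tested (y axis) in each library (x axis), coloured by its log2(FPKM + 1) minus the mean over control and LY500307+PD-1 libraries. Blue prevails in LY500307+PD-1 libraries 1 and 3, and library 2 is paler.

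Of the angiogenic ligands, 9 of 11 tested were lower and the median was -0.08, and -0.29 without control library 1, -0.18 without LY500307+PD-1 library 2 and -0.14 without control library 3. Vegfa, the main growth factor of endothelium, stood at 23.998, 31.4 and 31.5 FPKM in control and 14.9, 17.3 and 24.5 in LY500307+PD-1, with 1 LY500307+PD-1 library above the lowest control. Dll4, the Notch ligand of tip cells, stood at 8.76, 7.07 and 6.06 in control and 3.56, 5.77 and 4.86 in LY500307+PD-1, with the groups apart. Among 8 pericyte and smooth muscle markers, 6 were lower, with a median of -0.23 that was -0.45 without LY500307+PD-1 library 2 and -0.15 without LY500307+PD-1 library 3. Kcnj8, a potassium channel subunit of pericytes, was lower without overlap (2.42 to 3.58 in control, 0.909 to 2.02 in LY500307+PD-1), and Mcam, CD146 of vascular cells, differed by -0.57 (SE 0.19) with a shared value range. Des, given above and also in this list, had its largest difference, at 1.22 (SE 0.42), and was higher without overlap. All 4 erythroid genes tested were lower too, with Hba-a2 (alpha globin) at 23.4, 16.03 and 11.5 in control, 9.595, 16.3 and 7.28 in LY500307+PD-1 and 34.7, 25.5 and 34.1 in PD-1, and Hbb-bt (beta globin) differing by -0.70 (SE 0.34) from control. The erythroid median of -0.65 was -0.32 without LY500307+PD-1 library 3 and -0.40 without control library 1. The part of these cells in the endothelial result was not tested.

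Coagulation and fibrinolysis genes divided, with 7 of 16 higher and 9 lower, 2 of the higher and 4 of the lower ones without overlap, where 3.58% and 4.31% of all genes were so. Besides F10, F13a1, the transglutaminase subunit that cross-links fibrin and is made by macrophages, stood at 6.35, 3.85 and 4.42 FPKM in control and 2.47, 3.51 and 2.403 in LY500307+PD-1. Plaur, the urokinase receptor, was higher, at 28.6, 29.5 and 25.8 in control and 34.02, 34.8 and 34.1 in LY500307+PD-1, also without overlap. The liver-made chains Fga, Fgb and Fgg of fibrinogen, and Plg, plasminogen, were listed at 0 in all 6 libraries. The list median was -0.16, and 0.00 without LY500307+PD-1 library 1.

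Interferon-stimulated genes were higher in LY500307+PD-1. Of 32 genes, all tested, 31 had a log2 difference above 0, where 49.5% of all genes did, and the median was 0.28. In 15 the groups did not overlap, where 3.58% of all genes were higher without overlap, and 7 reached an unadjusted p under 0.05 in limma, where 1.48% did. None passed the adjusted test. As in every list, members share libraries and can move together, so the directions of these genes are not separate observations. Promoters of some of these genes and of related ones are shown first, because they hold the interferon-stimulated response element, which binds interferon regulatory factors.

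Stretches of 80 bases are printed 5′ to 3′ on the strand of the gene from RefSeq promoters (GRCm38.p6, 250 bases before to 50 after the start), and capitals mark the core of the element, GAAA and GAAA with any 2 bases between, or its reverse complement, with overlapping matches run together.
Ifit3b, chr19:34607751-34607830, plus strand: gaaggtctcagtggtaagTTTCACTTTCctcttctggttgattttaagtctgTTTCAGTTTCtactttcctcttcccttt
Ifit1, chr19:34640759-34640838, plus strand: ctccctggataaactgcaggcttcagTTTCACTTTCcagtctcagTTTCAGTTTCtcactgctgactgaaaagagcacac
Isg15, chr4:156200846-156200925, minus strand: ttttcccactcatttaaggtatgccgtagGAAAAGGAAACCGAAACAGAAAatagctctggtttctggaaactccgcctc
Igtp, chr11:58199487-58199566, plus strand: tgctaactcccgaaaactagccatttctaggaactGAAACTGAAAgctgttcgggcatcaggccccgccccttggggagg
Gbp7, chr3:142530248-142530327, plus strand: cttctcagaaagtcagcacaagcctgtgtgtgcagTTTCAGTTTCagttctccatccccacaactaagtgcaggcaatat
Cxcl10, chr5:92349058-92349137, minus strand: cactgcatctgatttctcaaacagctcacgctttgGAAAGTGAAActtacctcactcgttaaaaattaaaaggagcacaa
The motif was searched on both strands. It was present in 943 of all 27025 promoters (3.49%), in 12 of the 22 interferon-stimulated genes matched (54.5%), in all 9 of the interferon-inducible GTPases matched (100%) and in none of 14 endothelial markers. A match describes letters and shows no binding. The palindromic estrogen response element, GGTCA and TGACC with any 3 bases between, searched likewise, was in 18 promoters (0.0666%), and none of the 9295 promoters of tested genes held it.

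Ifit3b, an interferon-induced protein with tetratricopeptide repeats, stood at 8.01, 9.67 and 13.4 FPKM in control, 12.4, 17.2 and 18.6 in PD-1 and 18.9, 18.5 and 17.03 in LY500307+PD-1. Its log2 difference from control was 0.78 (SE 0.18) and that from PD-1 was 0.18 (SE 0.19). Ifit3 has a promoter stretch with the same 80 bases as Ifit3b, and reads of the pair may be shared, so each value is uncertain. Ifit3 stood at 20.5, 27.6 and 35.4 in control and 46.4, 41.4 and 51.8 in LY500307+PD-1. Ifit1, which recognizes viral RNA lacking cap methylation, stood at 10.03, 9.93 and 12.97 in control and 17.4, 14.8 and 19.4 in LY500307+PD-1, a log2 difference of 0.60 (SE 0.15). Isg15, a ubiquitin-like modifier, stood at 86.3, 71.98 and 103 in control and 127, 132 and 111 in LY500307+PD-1. In each of the 4 genes all LY500307+PD-1 libraries were above the control libraries. PD-1 libraries lay above all control libraries too for Ifit1, at 13.5, 13.4 and 21.4, Ifit3, at 38.2, 42.6 and 42.7, and Isg15, at 112, 119 and 111, and for Ifit3b in 2 of 3.

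Control library 3 was nearest to the treated libraries. Summed over the list, the genes came to 1073, 1056 and 1329 FPKM in control, 1361, 1365 and 1455 in LY500307+PD-1 and 1390.5, 1403 and 1246 in PD-1. The list median was 0.45 without control library 3, and 0.22 to 0.33 without any other single library.

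**Figure D3:**
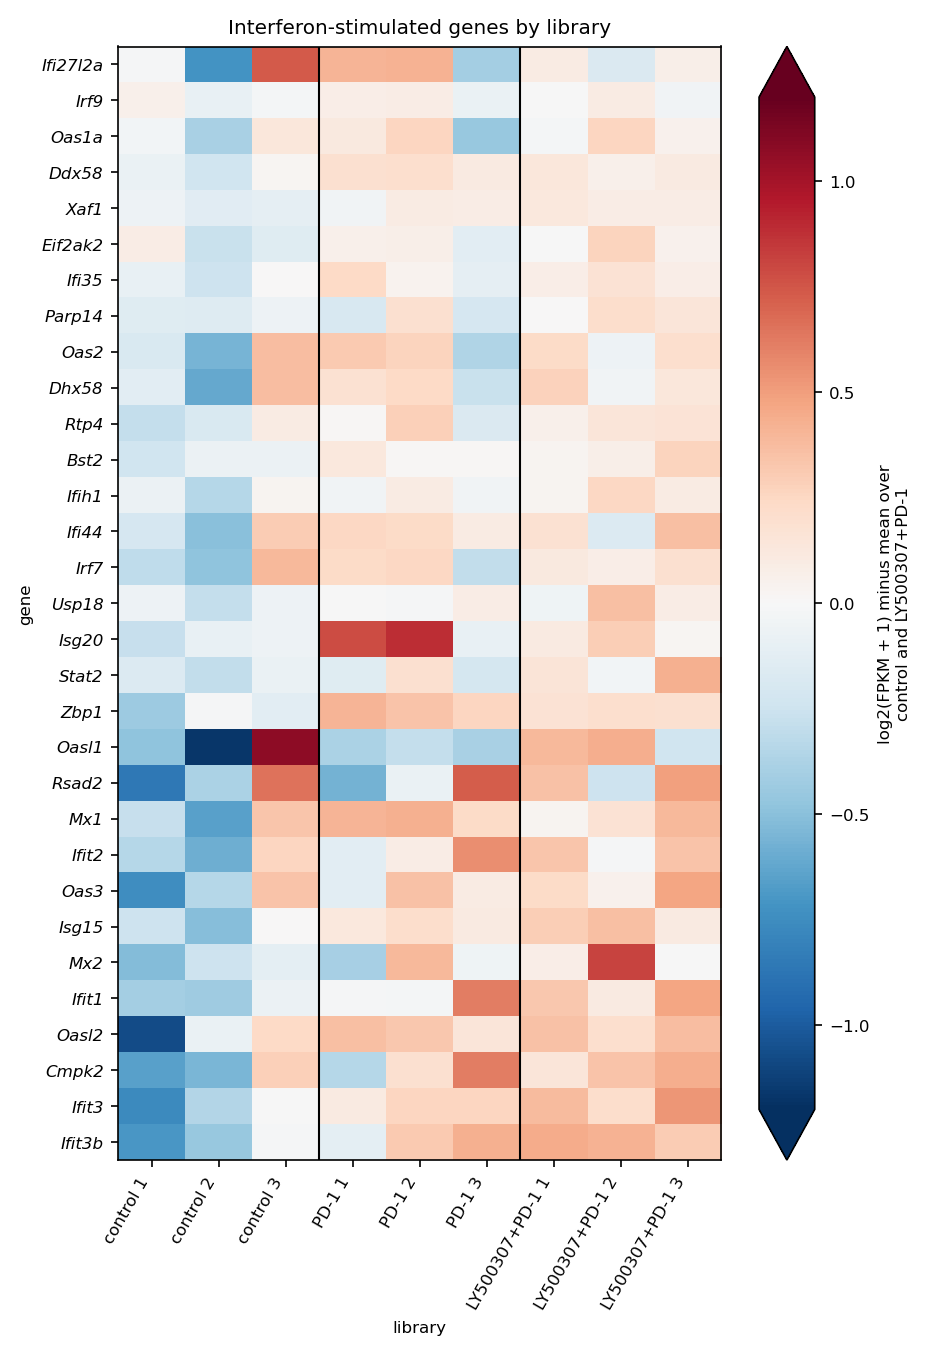
Interferon-stimulated genes (31 of the 32, y axis) in each library (x axis), coloured by log2(FPKM + 1) minus the gene's mean over control and LY500307+PD-1 libraries. Red prevails in all LY500307+PD-1 libraries and blue in control libraries 1 and 2, while control library 3 and the PD-1 libraries hold both.

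The interferon-inducible GTPases, which attack the vacuoles of intracellular pathogens, were higher in 14 of 15 members, with a median of 0.33 that was 0.16 without LY500307+PD-1 library 3. Without control library 3, 11 were higher. Summed levels were 668, 697 and 628 FPKM in control, 801, 827 and 849 in PD-1 and 854, 690.4 and 876 in LY500307+PD-1, where library 2 stood within the control range. Igtp stood at 136, 133 and 115 FPKM in control and 169.5, 154 and 173 in LY500307+PD-1, a log2 difference of 0.37 (SE 0.11). Gbp7, a guanylate-binding protein, stood at 18.7, 15.9 and 15.99 in control and 22.4, 20.5 and 23.4 in LY500307+PD-1. The groups were apart for both, and for Irgm2 at 41.7 to 50.2 and 56.2 to 61.8, but Igtp shares 162 exonic bases with Irgm2, so these values are not independent. Cxcl10, the interferon-induced chemokine that draws T cells through CXCR3, stood at 9.03, 9.09 and 11.3 in control, 12.6, 16.4 and 11.1 in PD-1 and 12.4, 15.5 and 12.8 in LY500307+PD-1. It was higher in LY500307+PD-1 than in control in each library, by a log2 difference of 0.43 (SE 0.14), and PD-1 libraries lay in about the same range.

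In MHC class I presentation, 20 of 21 genes were higher, with a smaller median of 0.13. After quantile normalization 18 were higher, without LY500307+PD-1 library 3 it was 15, and without control library 2 it was 16. Summed levels were 6084, 6442 and 6883 FPKM in control and 7059, 6028 and 7509 in LY500307+PD-1, where library 2 was below each control library. The immunoproteasome subunit Psmb9, which cuts proteins into peptides suited to MHC class I, stood at 35.5, 35.2 and 35.4 FPKM in control, 38.8, 47.4 and 36.9 in PD-1 and 45.3, 49.999 and 45.5 in LY500307+PD-1. The control libraries were nearly equal, and the log2 difference was 0.40 (SE 0.09). Its partner subunit Psmb10 stood at 127, 115 and 110.4 in control and 148, 160.3 and 137 in LY500307+PD-1, again without overlap. MHC class II genes were divided, with 6 of 10 higher, 1 without control library 2 or LY500307+PD-1 library 3, and 10 without control library 3. H2-Oa, which tunes peptide loading, differed by 0.20 (SE 0.26) and Ifi30, a lysosomal thiol reductase, by -0.16 (SE 0.29), with overlap in both.

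Genes of cholesterol synthesis and uptake, which SREBP2 switches on when sterols run low, were higher in 22 of 25, with a median of 0.38. The groups did not overlap in 4 of them, where 3.58% of all genes were higher without overlap, and 6 reached an unadjusted p under 0.05 in limma, where 1.48% did. Lss, the synthase that makes lanosterol, stood at 1.38, 1.37 and 1.68 FPKM in control, 1.72, 2.39 and 1.47 in PD-1 and 2.55, 2.504 and 2.33 in LY500307+PD-1. Its log2 difference was 0.49 (SE 0.14), with each LY500307+PD-1 library above each control library. Hsd17b7, an oxidoreductase of the sterol path that can also reduce estrone to estradiol, differed by 0.42 (SE 0.14), and Sqle, the squalene epoxidase, stood at 9.51, 12.01 and 9.67 in control and 13.03, 17.9 and 13.3 in LY500307+PD-1. Hmgcs1, the HMG-CoA synthase of the mevalonate path, stood at 12.2, 17.7 and 12.7 in control and 19.4, 27.4 and 17.4 in LY500307+PD-1, with overlap. Summed over the list, cholesterol genes came to 241, 308 and 227 FPKM in control and 295, 387 and 276 in LY500307+PD-1. Control library 2 was above LY500307+PD-1 libraries 1 and 3, and PD-1 libraries stood at 229, 338 and 256.

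The promoter of Hmgcs1 held the sterol regulatory element TCACNCCAC, in capitals, the only 1 of 17 cholesterol gene promoters matched (5.88%) against 330 of all 27025 (1.22%).
Hmgcs1, chr13:119690178-119690257, plus strand: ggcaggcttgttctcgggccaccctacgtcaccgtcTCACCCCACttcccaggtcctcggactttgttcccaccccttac
Without control library 1 or 3, or LY500307+PD-1 library 2, the cholesterol list median was 0.23, 0.23 and 0.24. It was 0.31 to 0.45 without any other single library.

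Genes of amino acid stress and hypoxia had list medians above 0 that were below 0 without control library 1. Of the stress list, 12 of 17 were higher, with Chac1, an enzyme that degrades glutathione, at 2.81, 3.05 and 2.77 FPKM in control and 5.51, 7.46 and 3.81 in LY500307+PD-1, and Asns, the asparagine synthetase, at 6.57, 11.7 and 6.53 in control and 11.8, 17.1 and 10.9 in LY500307+PD-1. The groups were apart for Chac1 alone, since control library 2 of Asns was near the LY500307+PD-1 level. Of 18 hypoxia and glycolysis genes, 13 were higher, with Egln3, an oxygen-sensing prolyl hydroxylase, differing by -0.61 (SE 0.31) and Aldoa, the glycolytic aldolase, by 0.45 (SE 0.25). Chac1 was in the range of 2.57 to 4.93 in PD-1 libraries. Without control library 1, 8 of the 17 stress genes were higher, with a median of -0.01 in place of 0.10, and 6 of the 18 hypoxia and glycolysis genes, with a median of -0.03 in place of 0.15.

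Cell cycle genes had log2 differences above 0 in 25 of 25, with a median of 0.30, but in none of them were the groups apart. Rrm2, a subunit of ribonucleotide reductase, stood at 16.1, 15.2 and 9.53 FPKM in control and 21.4, 37.8 and 14.2 in LY500307+PD-1. Mcm3, a subunit of the replicative helicase, stood at 29.1, 14.8 and 11.2 in control and 24.2, 32.7 and 20.8 in LY500307+PD-1. The list leaned on LY500307+PD-1 library 2 and control library 3, since 16 of 25 were higher and the median was 0.02 without the former, and 17 were higher with a median of 0.14 without the latter. Without LY500307+PD-1 library 3 the median was 0.54.

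Arg1, the arginase that depletes arginine and marks suppressive macrophages, stood at 67.01, 55.4 and 96.02 FPKM in control, 49.6, 64.6 and 106 in PD-1 and 42.2, 33.3 and 40.1 in LY500307+PD-1. Each LY500307+PD-1 library was below each of the other 6, with log2 differences of -0.87 (SE 0.21) from control and -0.85 (SE 0.28) from PD-1. Ido1, a tryptophan-degrading enzyme, stood at 2.68, 4.51 and 4.88 in control and 4.75, 12.3 and 7.77 in LY500307+PD-1, with some overlap. The 9 suppressive myeloid enzymes tested were divided, with 4 higher and 5 lower, and their median of -0.05 ran from -0.22 to 0.29 with 1 library left out.

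Among monocyte and macrophage markers, 13 of 19 were lower, with no marker apart between groups. Their summed levels were 2124, 1217 and 3951 FPKM in control and 2213, 1445 and 1985 in LY500307+PD-1, highest in control library 3, and the median of -0.17 was 0.25 without that library, 0.03 without LY500307+PD-1 library 2 and -0.54 without control library 2. Cd14, the lipopolysaccharide coreceptor, differed by -0.46 (SE 0.30) and Itgam, an integrin of myeloid cells, by 0.69 (SE 0.50). The value of Itgam is uncertain, because 3450 of its 5024 exonic bases are shared with Gm49368 on the same strand. Of 15 neutrophil markers 11 were lower. Ngp, a granule protein, stood at 3.61, 1.12 and 1.75 in control and 0.285, 0 and 1.199 in LY500307+PD-1, and Il1b, the inflammatory cytokine, at 26.5, 22.4 and 35.3 in control and 17.6, 13.4 and 27.6 in LY500307+PD-1. The neutrophil median, at -0.14, was 0.19 without LY500307+PD-1 library 2 and -0.69 without LY500307+PD-1 library 3.

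Stefins inhibit cysteine proteases. Of 8 tested, 5 were higher, with Stfa3 without overlap and Cstb, a cytoplasmic stefin found in most cells, at 242, 255 and 277 FPKM in control and 279, 299 and 296 in LY500307+PD-1. BC100530, a stefin of the same mouse cluster as Stfa3, stood at 3.33, 2.101 and 5.57 in control and 25.6, 26.7 and 4.95 in LY500307+PD-1, with LY500307+PD-1 library 3 inside the control range. Reads can be shared in the Stfa cluster, so its single genes are uncertain. Mast cell markers were higher in 8 of 9, but their median of 0.96 was -0.34 without control library 1. Mcpt4, a mast cell chymase, was at 0.302, 11.3 and 64.1 in control and 43.9, 25.7 and 39.5 in LY500307+PD-1, and Kit, the receptor of stem cell factor, differed by -0.42 (SE 0.24).

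Of 20 T and NK cell markers 14 were higher with no marker apart, and the median was 0.12. Single libraries decided that direction, since 8 of 20 were higher without control library 2 (median -0.11) or without LY500307+PD-1 library 3 (median -0.03), and 18 without control library 3 (median 0.42) or LY500307+PD-1 library 2 (median 0.36). Foxp3, the factor of regulatory T cells, stood at 0.0766, 0.194 and 2.36 FPKM in control and 2.18, 2.67 and 1.45 in LY500307+PD-1, and Trbc2, a constant segment of the T cell receptor, differed by 0.29 (SE 0.22). Of the 4577 exonic bases of Foxp3, 853 are shared with Flicr on the same strand and 590 with the more abundant Ccdc22 on the opposite strand. PD-1 itself, Pdcd1, stood at 4.03, 1.47 and 2.59 in control and 3.05, 1.08 and 5.31 in LY500307+PD-1, and its ligand Cd274 (PD-L1) at 12.1, 18.9 and 21.3 in control and 24.02, 10.1 and 29.7 in LY500307+PD-1. Both overlapped broadly, with log2 differences of 0.09 (SE 0.44) and 0.18 (SE 0.40) and 95% intervals of -0.97 to 1.14 and -0.77 to 1.14. Cd86, a costimulatory ligand, differed by -0.33 (SE 0.32) and Pdcd1lg2, the other PD-1 ligand, by -0.38 (SE 0.37).

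Csf1, the macrophage growth factor, stood at 16.7, 23.3 and 36.2 FPKM in control, 21.2, 24.6 and 30.4 in PD-1 and 28.8, 12.9 and 28.5 in LY500307+PD-1. The log2 difference from control was -0.13 (SE 0.38), with a 95% interval of -1.04 to 0.77, and the groups overlapped. Its receptor Csf1r stood at 32.5, 19.4 and 64.4 in control and 29.04, 23.02 and 28.9 in LY500307+PD-1, highest in control library 3. Il34, the other ligand of that receptor, differed by -0.33 (SE 0.15). The nuclear estrogen receptors were low. Esr1 stood at 1.203, 0.819 and 0.635 in control and 0.652, 0.876 and 0.803 in LY500307+PD-1, and Esr2, the named target of LY500307, was listed at 0 in all 6 libraries except control library 2 at 0.0354. Both were below the expression filter. Of the 11 estrogen receptors and targets tested 7 were lower, Gper1 among them, and Ccnd1, cyclin D1, differed by 0.26 (SE 0.16). The value of Ccnd1 is uncertain, because 1100 of its 4709 exonic bases are shared with LTO1 on the opposite strand.

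Epithelial, muscle and fat markers differed mostly by library. Of 14 epithelial markers 10 were higher, with a median of 0.15, and 7 with a median of -0.03 without LY500307+PD-1 library 2. Krt5, a basal keratin, stood at 0.218, 0.0544 and 2.73 FPKM in control and 11.5, 64.4 and 1.38 in LY500307+PD-1, with library 2 far above the rest. Cdh1, E-cadherin, stood at 55.8, 84.1 and 66.97 in control and 87.03, 94.9 and 81.3 in LY500307+PD-1. Skeletal muscle markers, of which all 7 tested had log2 differences above 0, came to 60.1, 60.3 and 40.2 in control and 66.9, 192 and 51.3 in LY500307+PD-1, and Mylpf, a fast myosin light chain, differed by 0.84 (SE 0.44). The muscle median was 0.72, and 0.26 without LY500307+PD-1 library 2. Fabp4, a fatty acid binder of fat cells, was at 7.08, 2.303 and 1.91 in control and 1.47, 10.1 and 1.61 in LY500307+PD-1.

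The lists left had medians near that of all genes. Fibroblast and matrix markers had a median of -0.08, with Col6a3, a collagen VI chain, differing by 0.27 (SE 0.30) and Sparc, a matrix glycoprotein, by -0.22 (SE 0.27). B and plasma cell markers had a median of -0.05, with Xbp1, a secretory stress factor, at -0.30 and Sdc1, syndecan-1, at -0.10. Dendritic cell markers had a median of -0.09, with Fscn1, an actin bundler, at -0.48 and Ccr7, a homing receptor, at 0.37. In the Wnt list, with a median of -0.02, Apc2, a relative of Apc, differed by 0.33 (SE 0.16) against -1.07 for Apc. Of p53 targets, with a median of 0.02, Aen, a nuclease, differed by 0.63 (SE 0.34) and Plk2, a polo-like kinase, by -0.36 (SE 0.22). Of immediate early genes, with a median of -0.02, Ier3 differed by -0.32 (SE 0.17) and Egr1, a zinc finger factor, by 0.52 (SE 0.38). Of NF-kB targets, with a median of 0.02, Traf1, a signalling adaptor, differed by 0.37 (SE 0.21) and Nfkb2, an NF-kB subunit, by 0.21 (SE 0.15). The groups overlapped in these genes except Apc2, which was higher in each LY500307+PD-1 library.

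**Figure D4:**
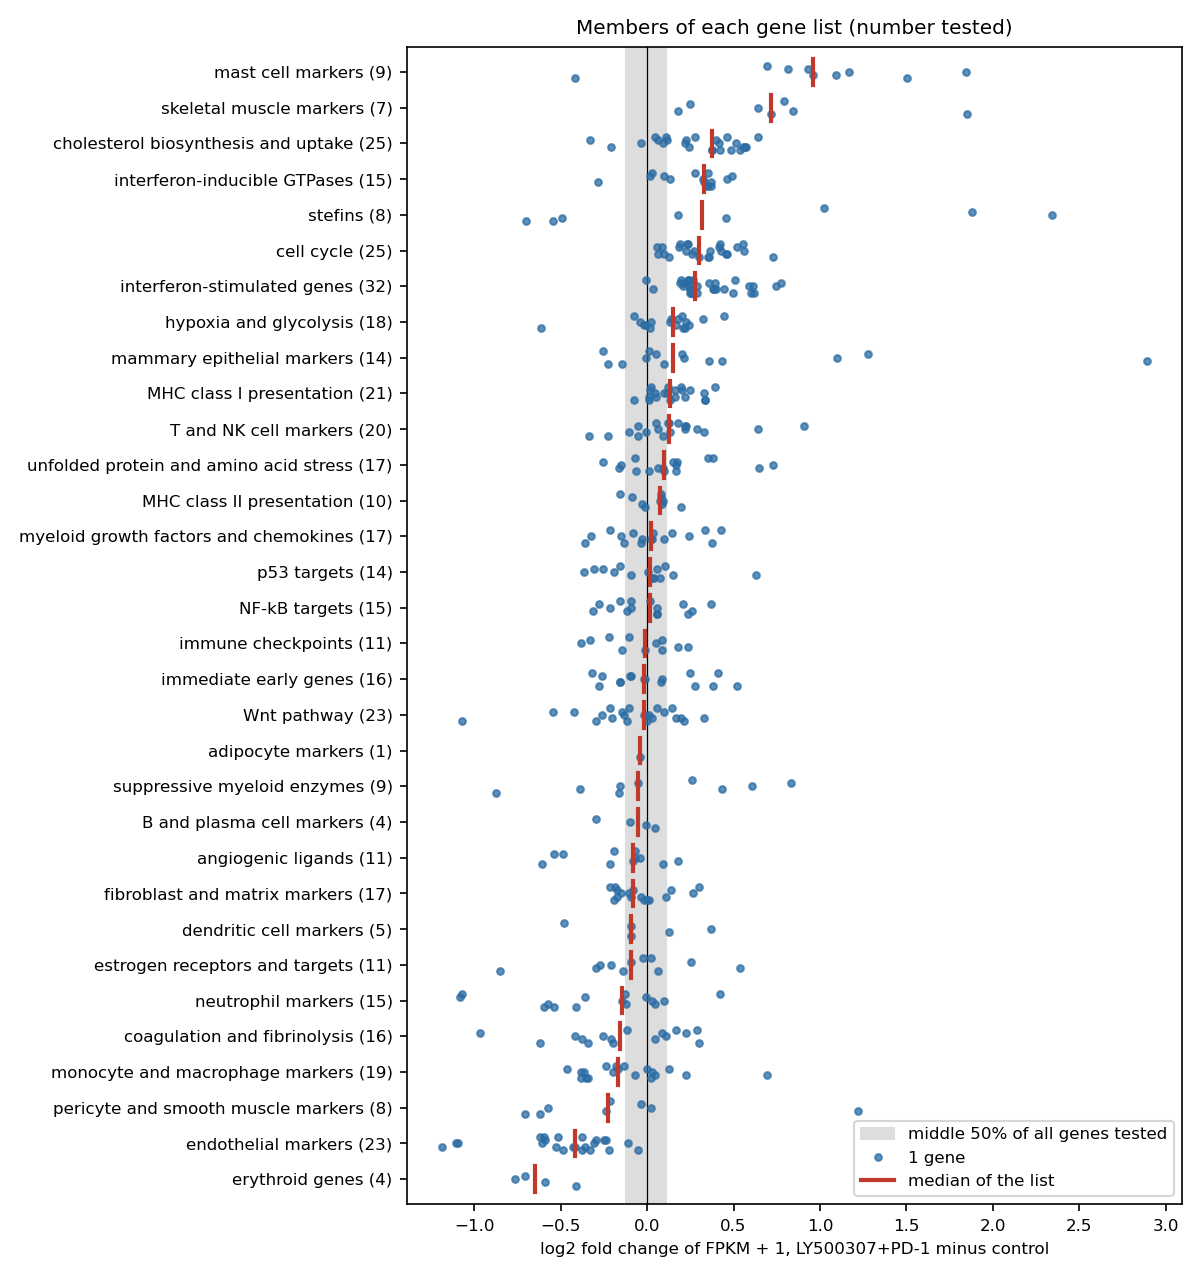
Log2 difference of LY500307+PD-1 from control (x axis) for each gene tested in 32 lists (y axis, with the number tested), as 1 point per gene and a red line at the list median, over a grey band with all genes between their quartiles. Endothelial markers lie to the left of 0 and interferon-stimulated and cell cycle genes to the right.

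**Figure D5:**
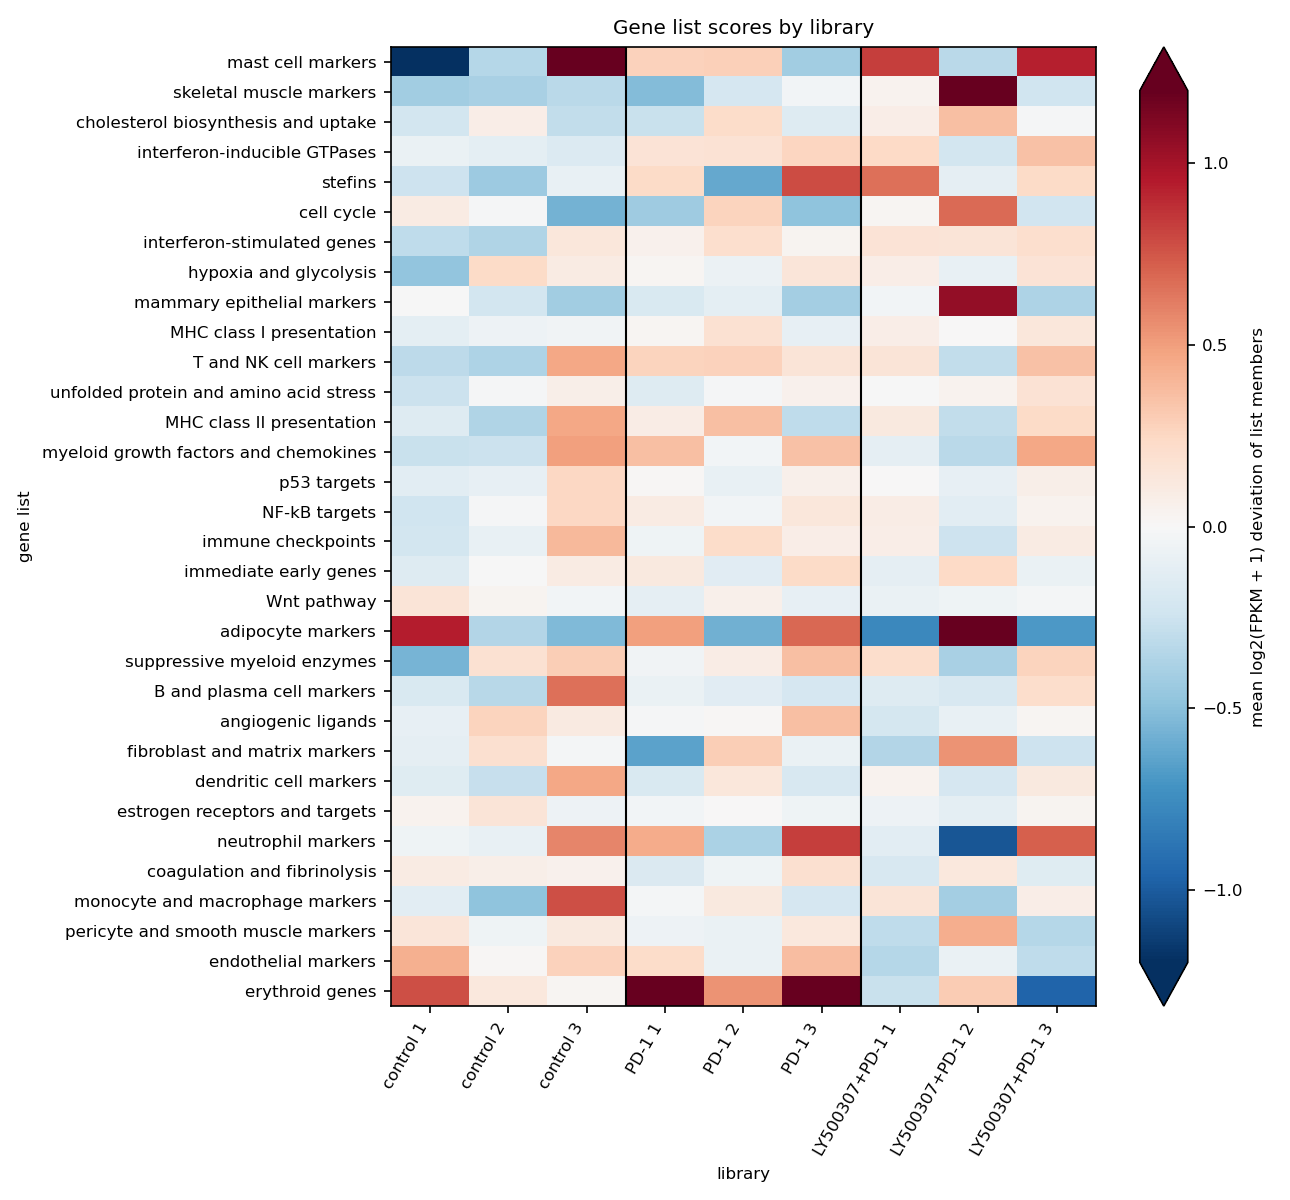
Mean log2(FPKM + 1) deviation of each list (y axis) in each library (x axis) from its mean over control and LY500307+PD-1 libraries, with red above and blue below. Single libraries stand out, among them LY500307+PD-1 library 2 in muscle and epithelial markers and control library 1 in mast cell markers.

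LY500307+PD-1 was also set against PD-1 alone, over 13990 genes in all 9 libraries. No gene passed an adjusted p under 0.05 in limma (0%), the smallest was 0.911, and 398 genes (2.84%) reached an unadjusted p under 0.05, 166 higher (1.19%) and 232 lower (1.66%), where 700 would by chance. Groups did not overlap in 7.6% of genes, again not above the chance of 0.1 for 3 against 3 libraries. Of 107 genes, those of the rule for named genes and those named besides, 12 had each LY500307+PD-1 library above each PD-1 library, among them Dlst, Stfa3, Eif1ad, Cxcl13 and Igtp. In 14 each was below, among them F10, Apc, Ramp2, Icam2, Pecam1, Ptgs1 and Arg1. These genes were chosen by their values in the same LY500307+PD-1 libraries, so the counts are a description only. Fpgs, Adamts14, Gper1 and Phospho1 had PD-1 libraries at about the LY500307+PD-1 level. Both comparisons share the LY500307+PD-1 libraries, and no difference between the comparisons was tested.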

How the data were processed

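Total RNA, depleted of ribosomal RNA, was made into stranded libraries, per the labels' protocols. The authors deposited 1 table of values with no unit named, and its values have the form of FPKM, as which they are treated. Per the submitters' processing notes the work involved CASAVA 1.8, Bowtie2, DESeq2 and the build mm9, without roles, with the counting tool, annotation and strand setting not given in the sources used here. Names and positions come from GENCODE M21 (GRCm38), which held 52403 of the 52550 genes. Between 25.3% and 28.2% of low values lay on whole steps of 1 fragment, so whole reads were not recovered and no count test was run.

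Titles gave the groups, since the treatment field of PD-1 libraries 2 and 3 has the replicate number in place of the 1. Genes with 3 or more of the 6 libraries at 1 FPKM or above were fitted as log2(FPKM + 1), a scale that understates the change of low genes, with limma 3.58.1 in R 4.3.3 (trend and robust options, no covariate), with Benjamini-Hochberg adjustment over 13560 genes. The comparison with PD-1 used 9 libraries and 13990 genes. A fold change is a difference on that scale. An exact permutation test of 3 against 3 libraries cannot go below 0.1 and was not used. Tables and figures used Python 3.11.15, numpy 2.4.6, pandas 2.3.3 and matplotlib 3.10.9.

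The genes, the 32 lists (552 of 553 entries matched) and the tests were chosen with earlier results of these data known. The named genes are, in each direction, the 12 of smallest unadjusted p and the 6 of largest difference, among those with a mean of at least 1 FPKM and groups that do not overlap (gene models and small RNAs left out). They also include the 2 tested members of smallest p in every list, and Csf1, Csf1r, Esr1, Esr2, Gper1, Cd274 and Pdcd1. Gm5641, Ifit3, Isg15, Irgm2, Sqle, Hmgcs1, Cstb, Plaur, Cldn5, Pecam1, Cdh5, Robo4, Flt1 and Esam were chosen after their values were seen. Alternatives were quantile normalization, no filter, a pseudocount of 0.1, no trend or robust option, other libraries in the fit, the replicate number as a block, and each library left out in turn. The level of 1 interferon-stimulated gene is counted with its list and not reported here.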

Additional observations from a re-analysis of the deposited data

How the results depend on the processing

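In LY500307+PD-1 against control, no gene passed an adjusted p under 0.05 in limma under any alternative run, namely all 9 libraries, no filter, no trend or robust option, a pseudocount of 0.1, quantile normalization, the replicate block and each library left out. With no filter on low values, 398 genes were higher and 385 lower at an unadjusted p under 0.05 in limma. With 1 library left out, between 139 and 286 were higher and between 162 and 366 lower, the latter without control library 2. In LY500307+PD-1 against PD-1, no filter gave 442 higher and 458 lower, and leaving out 1 library gave between 144 and 331 higher and between 147 and 333 lower. Leaving out 1 library there gave between 0 and 2 genes at an adjusted p under 0.05, with 2 without PD-1 library 1 (Trim25 and Nek7), and 1 each without PD-1 library 3 (H2-Bl) and without LY500307+PD-1 library 2 (Nipsnap2). The cause was not tested.

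Residuals of same-numbered control and LY500307+PD-1 libraries correlated at -0.117, 0.151 and 0.284, and not every library correlated best with its own number. Residuals were taken within each group of 3, which ties these correlations together. They therefore cannot decide whether the replicate numbers pair the samples. With the replicate number as a block, 0 genes passed in either comparison, 282 were higher and 293 lower than control at an unadjusted p under 0.05 in limma, and 265 were higher and 268 lower than PD-1.

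The list medians of interferon-stimulated, cholesterol and endothelial genes kept their sign when 1 library was left out. Their ranges were 0.22 to 0.45, 0.23 to 0.45 and -0.61 to -0.32, and the endothelial -0.61 came without control library 2. The medians also kept their sign with no filter, a pseudocount of 0.1 and quantile normalization. The other alternatives leave each fold change as it is, so they could not turn a sign. The Wnt list, with a median of -0.02, kept its sign too, so a kept sign does not set a list apart. Leaving out 1 library turned the sign of genes with small differences. These ran from -0.39 to 0.23 for Csf1, -0.75 to 0.089 for Csf1r, -0.11 to 0.62 for Cd274, -0.29 to 0.51 for Pdcd1, -0.058 to 0.38 for H2-Oa, -0.44 to 0.14 for Ifi30, -0.0086 to 0.50 for Col6a3, -0.56 to 0.12 for Xbp1, -0.42 to 0.11 for Sdc1, -0.75 to 0.42 for Fabp4, -0.59 to 0.043 for Cd86 and -0.64 to 0.064 for Pdcd1lg2. With 3 libraries per group, the limits are the spread between libraries and genes near the filter of 1 FPKM.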

Other observations

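Of 8020 genes that averaged at least 5 FPKM over the 9 libraries, 10 stood at 2 separate levels, with at least 3 libraries at each, a gap of at least 1 on the log2 scale and a range of at most 0.5 within a level. In 2 of the 10 the control and LY500307+PD-1 groups did not overlap, where they did not in 7.89% of all genes compared. Ube2v1, a ubiquitin-conjugating enzyme variant, stood at 5.63, 6.19 and 34.8 FPKM in control, 37.9, 36.7 and 5.09 in PD-1, and 35.5, 5.72 and 32.6 in LY500307+PD-1. Gm20431, which shares 1673 exonic bases with Ube2v1 on the same strand, stood at 34.6, 44.5 and 0 in control, 0, 0 and 39.6 in PD-1, and 0, 42.4 and 0 in LY500307+PD-1. Each library high in one of this pair was low or listed at 0 in the other. Crk was at its lower level in control libraries 1 and 2 and PD-1 library 3, and at its upper level in the other 6 libraries. Icmt, a methyltransferase of prenylated proteins, stood at 11.6, 4.603 and 12.4 in control, 3.74, 14.3 and 4.26 in PD-1, and 14.2, 13.01 and 14.1 in LY500307+PD-1. These genes were chosen after their values were seen.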
